A study of Homo sapiens with 4 samples.

Results

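The apolipoprotein L (APOL) genes were followed in OVSAYO cells, a line derived from human ovarian clear cell carcinoma (CCC), after silencing of the transcription factor Sp1 and after exposure to cobalt chloride (CoCl2), a salt that mimics hypoxia. All spots whose RefSeq accession belongs to APOL1, APOL2, APOL3, APOL4, APOL5 or APOL6 were taken, which gave 12 probes of 6 genes among the 41000 non-control probes and 17718 named genes of the array. The family was proposed with its ratios on these arrays known, so its levels and ratios are given as a description, and its members were then chosen by accession alone. Each of 4 one-colour Agilent arrays, all on 1 slide, held the RNA of 1 condition. The control cells (NS-si) received a Silencer negative control siRNA and the silenced cells (Sp1-si) received a SMART pool siRNA against Sp1. Both kinds of cell were kept for 40 h after transfection with lipofectamine, and were then left without CoCl2 or given 0.5 mM CoCl2 for 4 h (NS-si → CoCl2 and Sp1-si → CoCl2). The 40 h is the time in the sample labels, and a legend in the study's text gives a shorter one. With 1 array a condition, every ratio below is a difference between arrays with no replicate check, no test was possible, and more precision would need more arrays.

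Apolipoprotein L proteins bind lipids and act at membranes. APOL1 is secreted and travels in blood on high-density lipoprotein particles, where it kills African trypanosomes, whereas the other members lack a secretion signal and stay inside the cell. The human genes lie close together on chromosome 22, and several of them are known to be induced by interferons and by tumour necrosis factor.

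All 12 probes had 1 spot on each array, were well above background on all 4 arrays and carried no outlier or saturation flag. Processed signals are given as the scanner software wrote them, in arbitrary units. Log2 ratios were taken after the 75th percentile of each array had been subtracted, so that a small difference between signals can differ from its log2 ratio in size and in sign. The ± after a log2 ratio is a technical SD, taken from probes of like signal that were spotted 10 times on each array. It covers the spread of spots within an array, and not differences between arrays, such as in scaling, or between cultures. A ratio was counted as changed at a size of at least 1 on the log2 scale. The family's members are alike enough in sequence that a probe may also bind the transcript of a relative, which was not tested.

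The siRNA lowered its target. The SP1 probe with 10 spots (A_23_P366312) had signals of 553 (NS-si), 39.2 (Sp1-si), 429 (NS-si → CoCl2) and 38.7 (Sp1-si → CoCl2), and a further SP1 probe (A_23_P53397) fell by 3.97 without and by 4.29 with CoCl2 on the log2 scale. The CCC markers NAPSA, PAX8, KRT7, KRT8, KRT18 and EPCAM were well above background on every array, although NAPSA fell by 2.33 in silenced cells without CoCl2 on the log2 scale. PTPRC, PECAM1, CDH5 and PDGFRA, which mark leukocytes, endothelium and fibroblasts, were well above background on none, while CD3E, CD14, VWF, DCN and LUM, further markers of these cell types, were so on all 4, and their part in the results was not tested.

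After Sp1 silencing, probes of APOL1, APOL3 and APOL6 rose without CoCl2, and those of APOL2 and APOL4 also did so with it. In silenced over control cells without CoCl2, 7 of 12 probes rose to the limit and 0 fell, where 5.44% of all probes rose and 5.96% fell. The 7 probes were 1 of APOL1, both of APOL3 and all 4 of APOL6, and all 12 ratios lay above 0, with a median of 1.20 against -0.02 for all probes, though that of APOL5 was -0.04 without scaling between arrays. Probes of 1 gene report on the same transcripts and are not independent. In silenced over control cells with CoCl2, 10 of 12 rose and 1 fell, where 6.39% of all probes rose and 9.54% fell, and the median was 1.64 against -0.07. Left out of the 10 were APOL5 and the APOL3 probe A_24_P416997, which fell.

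CoCl2 raised fewer of them. In control cells 2 of 12 rose and 0 fell, where 4.44% of all probes rose and 4.42% fell. These were APOL2 A_23_P211488, at 1.03, and the APOL3 probe A_24_P416997, and the former was under the limit with 4 other ways of processing, at 0.82 to 0.99. In silenced cells 4 rose and 1 fell, where 3.74% of all probes rose and 6.14% fell, and those that rose were APOL1 A_24_P87931, both probes of APOL2 and that of APOL4. The probe that fell, APOL3 A_24_P416997 at -1.07, was also under the limit in size with 4 other ways of processing. A CoCl2 comparison and an Sp1 comparison have 1 array in common, so their values are given side by side and not as independent observations. On the array of Sp1-si → CoCl2 cells the 75th percentile signal was 1182, against 902 to 1049 on the other 3, and without scaling the median log2 ratio of all probes in Sp1-si → CoCl2 over NS-si → CoCl2 cells moved from -0.07 to 0.32, with 14.2% of probes raised and 4.45% lowered, and the median of the 12 APOL probes was then 2.03. For CoCl2 it moved from 0.01 to -0.20 in control cells and from -0.02 to 0.20 in silenced cells.

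**Figure D1:**
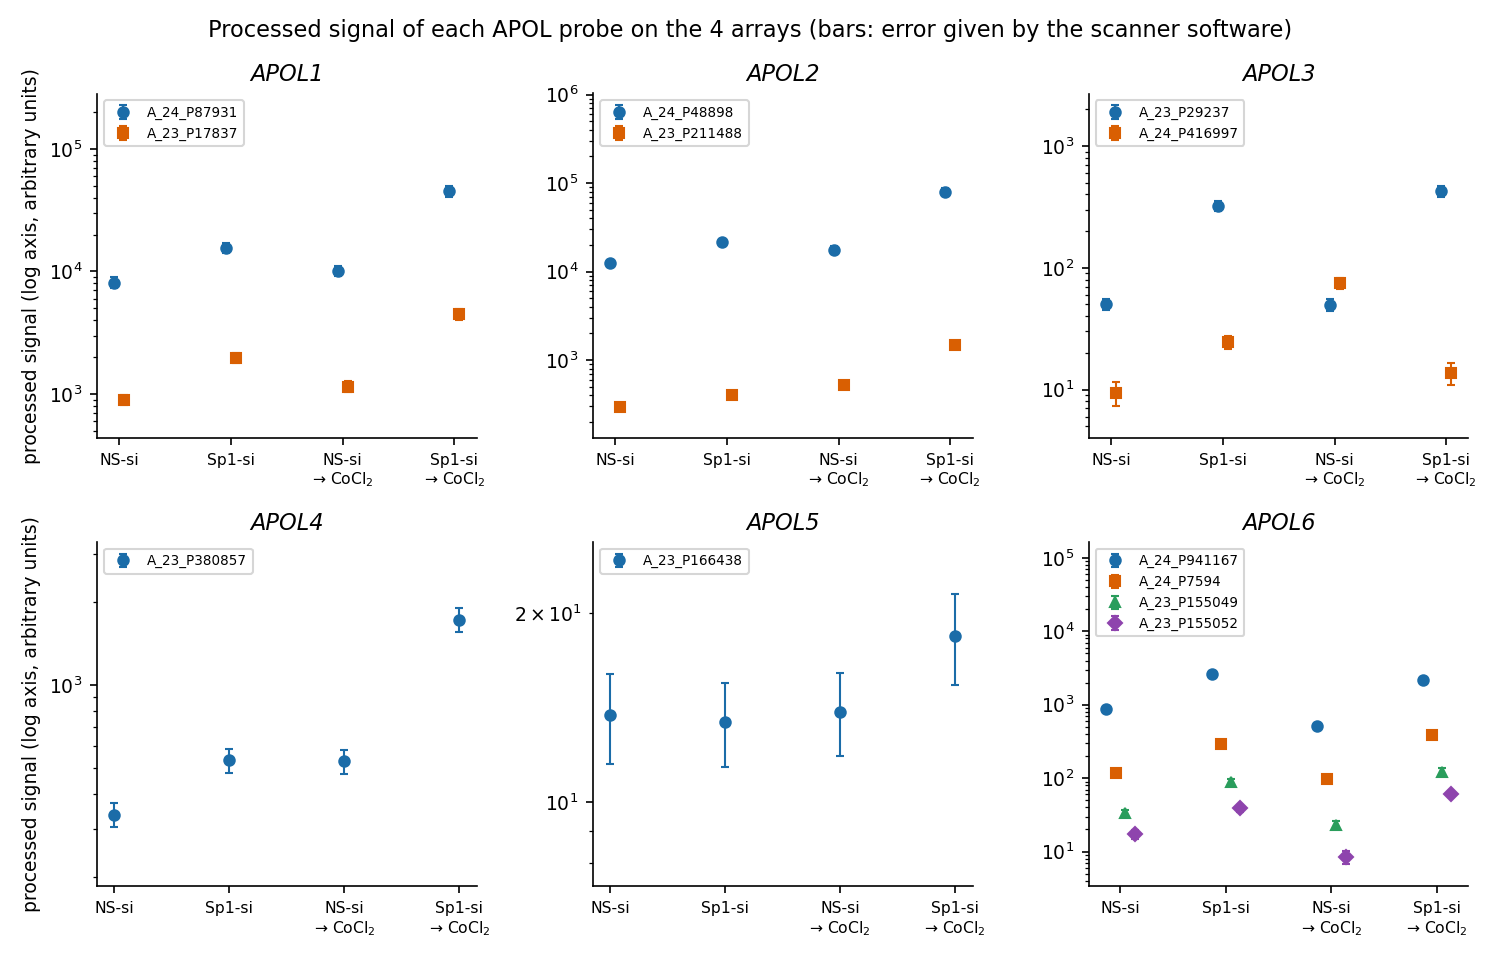
Processed signal (log axis, arbitrary units, not scaled between arrays) of each APOL probe in NS-si, Sp1-si, NS-si → CoCl2 and Sp1-si → CoCl2 cells, with 1 panel a gene, 1 array a condition and the scanner software's own error as bars. The Sp1-si → CoCl2 array holds the highest signal of all probes except APOL3 A_24_P416997 and APOL6 A_24_P941167, and levels are not comparable between probes.

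APOL1, the secreted member that lyses trypanosomes, was higher in silenced than in control cells, and higher again when CoCl2 was added. Its probe A_24_P87931 had signals of 8123 (NS-si), 15633 (Sp1-si), 10117 (NS-si → CoCl2) and 44986 (Sp1-si → CoCl2). The Sp1-si → CoCl2 array thus stood far above the other 3, and NS-si was lowest. Without CoCl2 the log2 ratio of silenced to control cells was 0.99 ± 0.06, just under the limit for a change, and with CoCl2 it was 1.76 ± 0.06, a 3.39-fold difference. The CoCl2 ratio was 0.53 ± 0.06 in control cells and 1.30 ± 0.06 in silenced cells.

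The other APOL1 probe, A_23_P17837, ordered the arrays in the same way, with signals of 896 (NS-si), 1150 (NS-si → CoCl2), 1980 (Sp1-si) and 4460 (Sp1-si → CoCl2). Its log2 ratios of silenced to control cells were 1.19 ± 0.08 without and 1.57 ± 0.07 with CoCl2. Its CoCl2 ratio was 0.58 ± 0.07 in control cells and 0.95 ± 0.07 in silenced cells. All 3 steps of this order exceeded the technical SD for both probes.

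APOL2, an intracellular member, also peaked in Sp1-si → CoCl2 cells. The signals of A_24_P48898 were 12438 (NS-si), 21402 (Sp1-si), 17632 (NS-si → CoCl2) and 79773 (Sp1-si → CoCl2), and those of A_23_P211488 were 294, 400.2, 518 and 1475 in the same order. Both probes were lowest in NS-si and highest in Sp1-si → CoCl2 cells, and they placed the arrays between these in opposite order. For A_24_P48898 the log2 step between the middle arrays was 0.11 with a technical SD of 0.06, so that its size was small beside the 1.68 ± 0.06 that CoCl2 added in silenced cells. For A_23_P211488, CoCl2 gave 1.03 ± 0.08 in control cells and 1.66 ± 0.08 in silenced cells. With CoCl2, both APOL2 probes reached the limit for a change in silenced over control cells, at 1.79 ± 0.06 for A_24_P48898 and 1.12 ± 0.08 for A_23_P211488, whereas without it they did not, at 0.83 ± 0.06 and 0.49 ± 0.08.

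APOL4, represented by A_23_P380857 alone, had signals of 338 (NS-si), 531 (Sp1-si), 528 (NS-si → CoCl2) and 1726 (Sp1-si → CoCl2). The middle arrays were nearly level and the Sp1-si → CoCl2 array was again the highest. The log2 ratio of silenced to control cells was 0.70 ± 0.08 without and 1.32 ± 0.08 with CoCl2, and the CoCl2 ratio was 0.86 ± 0.07 in control and 1.48 ± 0.08 in silenced cells. APOL1, APOL2 and APOL4 thus had positive log2 ratios in all 4 comparisons with each of their 5 probes. Those ratios were also positive without scaling and with the normexp correction described below. APOL3 A_23_P29237 and APOL5 were positive in all 4 as well, though not without scaling.

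**Figure D2:**
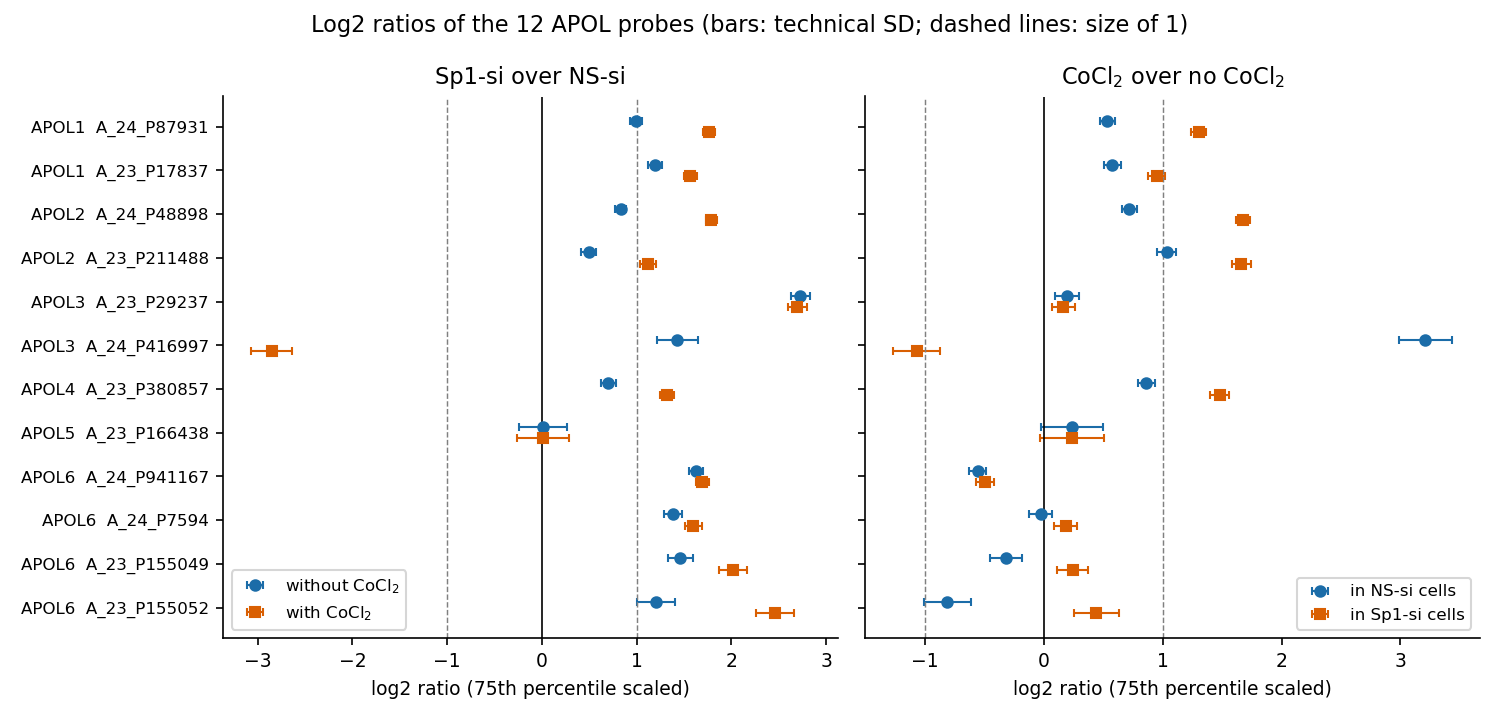
Log2 ratios (75th percentile scaled) of the 12 APOL probes, on the left for silenced over control cells without and with CoCl2, on the right for CoCl2 over no CoCl2 in control and silenced cells, with bars for the technical SD and dashed lines at a size of 1. With CoCl2, 10 probes lie above 1 in the left panel and APOL3 A_24_P416997 lies at -2.85, while in the right panel the APOL6 probes lie between -0.81 and 0.44.

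APOL3, whose protein is known to disrupt the membranes of bacteria that enter the cell, gave a contradictory picture. Its probe A_23_P29237 had signals of 50.5 (NS-si), 324 (Sp1-si), 49.9 (NS-si → CoCl2) and 423 (Sp1-si → CoCl2). The arrays fell into a low pair of control cells and a high pair of silenced cells. The log2 ratio of silenced to control cells was 2.73 ± 0.10 without CoCl2, a 6.63-fold difference, and 2.70 ± 0.10 with it, a 6.48-fold difference. A normexp background correction with an offset of 50, which shrinks ratios of dim spots, gave 1.81 without and 1.73 with CoCl2 in their place. The ratios before this correction ranked 54 and 73 from the top of the 30234 probes that all 4 arrays measured well above background. CoCl2 itself left this probe near its starting level, at 0.20 ± 0.10 in control and 0.16 ± 0.10 in silenced cells, and the former was -0.02 without scaling between arrays.

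The other APOL3 probe, A_24_P416997, was dim, and it was higher in silenced than in control cells without CoCl2 and lower with it. Its signals were 9.42 (NS-si), 24.5 (Sp1-si), 74.95 (NS-si → CoCl2) and 13.6 (Sp1-si → CoCl2), with errors from the scanner software of 2.02, 2.90, 7.67 and 2.77. The NS-si → CoCl2 array stood above the other 3, and the NS-si signal was close to 7.39, the lowest signal that was called well above background on that array. The log2 CoCl2 ratio was 3.21 ± 0.22 in control cells and -1.07 ± 0.20 in silenced cells, and the ratio of silenced to control cells was 1.43 ± 0.22 without and -2.85 ± 0.22 with CoCl2. The smallest step in its order, from NS-si to Sp1-si → CoCl2, was 0.36 on the log2 scale with a technical SD of 0.24. Before background subtraction the spot medians were 30.5 (NS-si), 47.0 (Sp1-si), 93.5 (NS-si → CoCl2) and 39.5 (Sp1-si → CoCl2), over a local background between 20.5 and 23.5. The normexp correction gave 1.11, -0.36, 0.31 and -1.16 for the same 4 log2 ratios.

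The disagreement between the APOL3 probes was among the largest on the array. With CoCl2, their log2 ratios of silenced to control cells lay 5.55 apart, against a median of 0.35 over the 4976 genes with at least 2 probes well above background, and 99.96% of these genes had a smaller gap. With the normexp correction these ratios were 1.73 for A_23_P29237 and -1.16 for A_24_P416997. For CoCl2 in control cells the gap was 3.01 against a median of 0.22. In silenced over control cells without CoCl2 the APOL3 probes had the same sign and were 1.30 apart. The gaps between the APOL1 probes (0.20 without and 0.20 with CoCl2 in silenced over control cells) and between the APOL2 probes (0.34 and 0.67) were nearer the medians of all genes, 0.19 and 0.35. The 4 APOL6 probes spanned 0.42 and 0.86 in these comparisons. For CoCl2 they spanned 0.79 in control and 0.94 in silenced cells, where 92.5% and 87.2% of the genes had a smaller gap. The gap is the highest minus the lowest ratio, so 4 probes tend to give a wider one than a pair. Genes were not matched by number of probes here.

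APOL6, a member with a BH3-like stretch that can trigger cell death when overproduced, was higher in silenced cells with every probe and was not raised to the limit by CoCl2. The signals of A_24_P941167 were 885 (NS-si), 2647 (Sp1-si), 518 (NS-si → CoCl2) and 2190 (Sp1-si → CoCl2). Those of A_24_P7594 were 117, 295, 98.6 and 391 in the same order. Both Sp1-si arrays were above both NS-si arrays for these probes. The dimmer probes A_23_P155049, with 33.5, 89.3, 23.1 and 123, and A_23_P155052, with 17.4, 38.7, 8.52 and 61.3, separated the arrays in the same way.

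Without CoCl2, the log2 ratios of silenced to control cells for APOL6 were 1.63 ± 0.08 (A_24_P941167), 1.39 ± 0.09 (A_24_P7594), 1.46 ± 0.13 (A_23_P155049) and 1.20 ± 0.20 (A_23_P155052). With CoCl2 they were 1.69 ± 0.07, 1.60 ± 0.09, 2.02 ± 0.15 and 2.46 ± 0.20. All 8 values passed the limit. With the normexp correction the dimmer probes no longer did, at 0.73 and 0.84 without and with CoCl2 for A_23_P155049 and at 0.38 and 0.54 for A_23_P155052. The order of the arrays was NS-si → CoCl2, NS-si, Sp1-si and Sp1-si → CoCl2 from low to high for 3 probes, of which A_24_P7594 did not separate the NS-si arrays beyond its technical SD (0.03 ± 0.09). A_24_P941167 instead had its highest level in silenced cells without CoCl2.

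The CoCl2 ratios of APOL6 were small and differed in sign between its probes. In control cells they were -0.56 ± 0.07, -0.03 ± 0.09, -0.32 ± 0.14 and -0.81 ± 0.20 for the probes in the order above. In silenced cells they were -0.49 ± 0.07, 0.19 ± 0.10, 0.24 ± 0.13 and 0.44 ± 0.19. The brightest probe was therefore negative in both, and the other 3 were negative in control cells and positive in silenced cells. With the normexp correction the values in control cells were -0.48, 0.05, 0.02 and -0.0042, so that the direction held for A_24_P941167 and not for the probes A_24_P7594 and A_23_P155049.

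APOL5, a little-studied member next to APOL6, did not move beyond its error. The signals of A_23_P166438 were 13.7 (NS-si), 13.4 (Sp1-si), 13.9 (NS-si → CoCl2) and 18.4 (Sp1-si → CoCl2), low on each array. After scaling, the largest log2 ratio was 0.24, with technical SDs between 0.25 and 0.27, and no pair of neighbouring arrays in its order could be told apart.

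**Figure D3:**
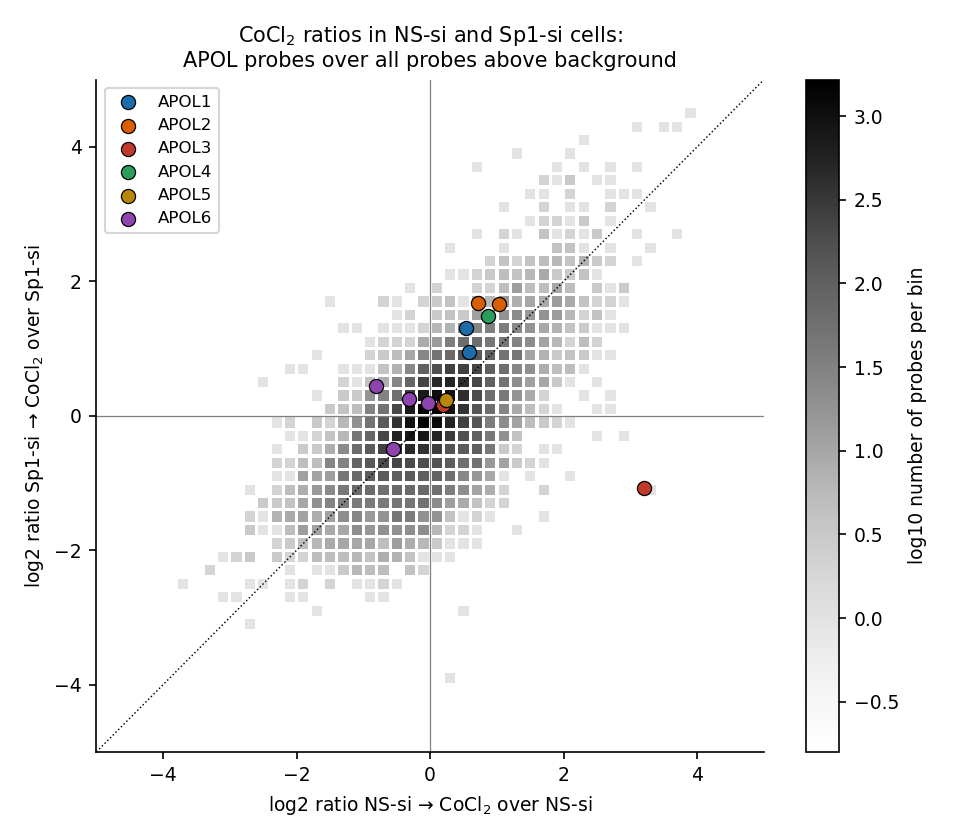
Log2 ratio of CoCl2 over no CoCl2 in control cells (x axis) against that in silenced cells (y axis), 75th percentile scaled, with the 30234 probes that all 4 arrays measured well above background as grey bins shaded by log10 number of probes and the 12 APOL probes as coloured points. The axes rest on different arrays, the dotted line marks equal ratios, and APOL3 A_24_P416997 lies alone at 3.21 and -1.07 while APOL1, APOL2 and APOL4 lie above the line.

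The difference of the CoCl2 ratios, that in silenced cells minus that in control cells, addresses whether the response to CoCl2 changed when Sp1 was silenced. It was 0.77 ± 0.09 and 0.37 ± 0.10 for the APOL1 probes A_24_P87931 and A_23_P17837, 0.96 ± 0.09 and 0.63 ± 0.12 for the APOL2 probes A_24_P48898 and A_23_P211488, and 0.62 ± 0.11 for APOL4. All 5 were positive and larger than their technical SD, which leaves out differences between arrays, and none reached the limit. For APOL3 A_23_P29237 it was -0.03 ± 0.15 and for APOL5 it was -0.00039 ± 0.40. Among the APOL6 probes it ranged from 0.06 ± 0.10 (A_24_P941167) to 1.25 ± 0.30 (A_23_P155052). The value of APOL3 A_24_P416997, -4.28 ± 0.32, was the lowest of the 30234 probes. Of 12 probes, 1 passed the limit upwards and 1 downwards, where 2.04% of all probes did so upwards and 5.38% downwards.

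The size of these differences depended on how the arrays were scaled. Without scaling the median difference of all probes was 0.43 in place of -0.01, 7.89% of all probes passed the limit upwards and 1.62% downwards, and 5 APOL probes passed upwards. The values of APOL1 A_24_P87931, APOL2 A_24_P48898, APOL2 A_23_P211488 and APOL4 were then 1.21, 1.40, 1.06 and 1.05. With the normexp correction, the difference of APOL6 A_23_P155052 was 0.15 and that of APOL3 A_24_P416997 was -1.47, whereas that of APOL2 A_24_P48898 was 0.97.

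**Figure D4:**
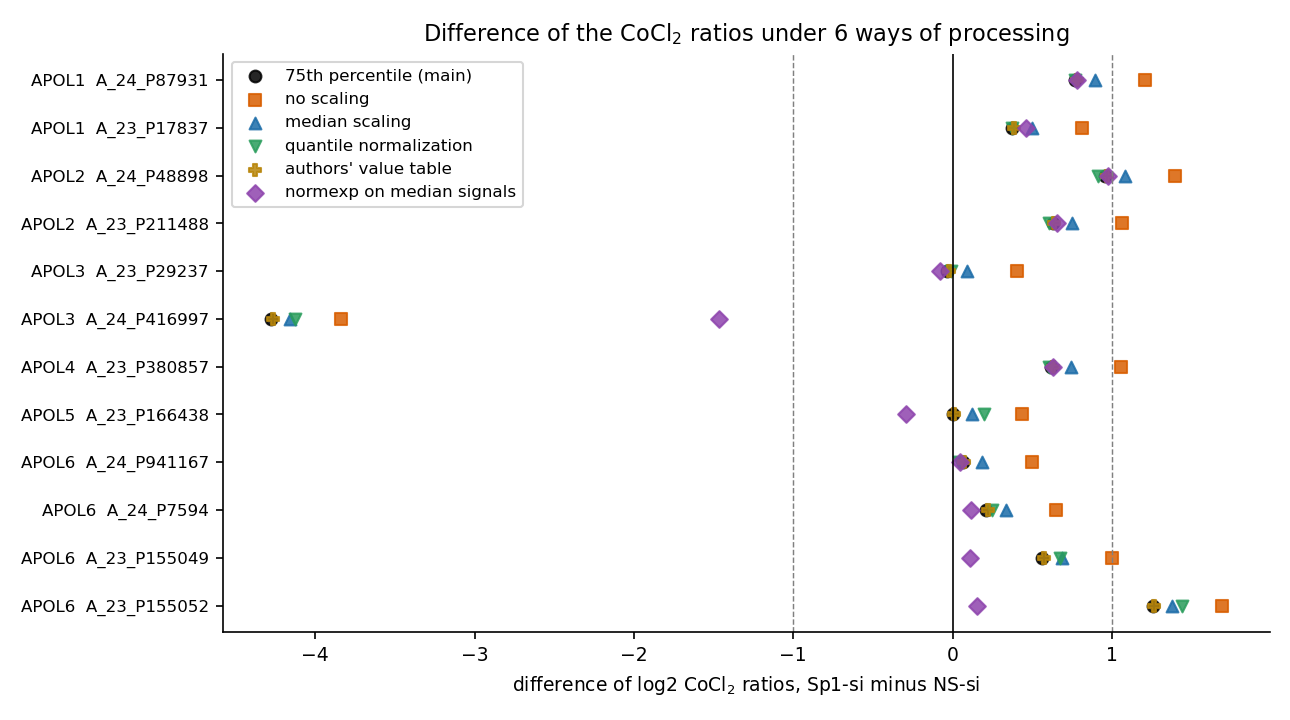
Difference of the log2 CoCl2 ratios (silenced minus control cells, x axis) of each APOL probe under 6 ways of processing the same arrays, with dashed lines at a size of 1. APOL1, APOL2 and APOL4 stay positive under all 6, and the dim probes APOL3 A_24_P416997 and APOL6 A_23_P155052 shrink to -1.47 and 0.15 under normexp.

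Since APOL genes are known interferon targets, 2 lists were described beside them, each gene by its brightest probe. In silenced over control cells without CoCl2, 16 of 48 measured interferon-stimulated genes rose and 0 fell, with a median of 0.48. The highest were IDO1, which breaks down tryptophan, at 4.77, TRIM22, an antiviral ubiquitin ligase, at 3.28, and IFITM1, which blocks entry of viruses, at 2.34. The lowest were the class I antigen-presenting genes HLA-C and HLA-B, both at -0.80, and PARP9 at -0.41. With CoCl2, 15 of 45 rose and 0 fell, with a median of 0.44, led by IDO1 at 4.14, TRIM22 at 3.77 and SAMD9L at 2.98, and the lowest were HLA-B at -0.85, HLA-C at -0.77 and HLA-E at -0.61. The shares raised were read beside the 5.44% and 6.39% of all probes. Of the 48 and 45 genes, 44 and 43 were well above background on both arrays compared. OAS1, GBP5 and CXCL10 were so only on the Sp1-si array without CoCl2, where their signals were highest. They entered the 48 as approximate bounds of 0.67, 0.47 and 0.98, under the limit, and count in the median.

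Of 17 genes of interferon signalling, 4 rose in silenced over control cells without CoCl2 and 0 fell, with a median of 0.42. They were SOCS1 at 2.59 and SOCS3 at 1.82, which restrain cytokine signalling, and the transcription factors IRF1 at 2.56 and IRF2 at 1.21. The lowest were the receptor chain IFNAR1 at -0.81 and the kinase JAK2 at -0.45. With CoCl2, IRF1 at 1.96 and SOCS1 at 1.53 rose, and IRF9 was next at 0.95.

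With CoCl2 itself, no gene of either list rose to the limit, where 4.44% of all probes rose in control and 3.74% in silenced cells. In control cells 0 of 45 interferon-stimulated genes rose and 5 fell, beside 4.42% of all probes that fell, with SAMD9L at -2.13, IFIT5 at -1.34 and SAMD9 at -1.33 lowest. In silenced cells 0 of 48 rose and 7 fell, beside 6.14% of all probes that fell, with XAF1 at -1.54, IFIT1 at -1.35 and IFI44 at -1.34 lowest. Among the 48 in silenced cells, OAS1, GBP5 and CXCL10 again entered as approximate bounds, at -0.37, -0.17 and -0.69. Of the signalling genes 0 rose or fell in control cells, and 0 rose and 2 fell in silenced cells. The medians of the interferon-stimulated list were -0.15 in control and -0.18 in silenced cells, and those of the 12 APOL probes were 0.38 and 0.34. These are descriptions of the lists and of 4 arrays, with no test of a difference between them.

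**Figure D5:**
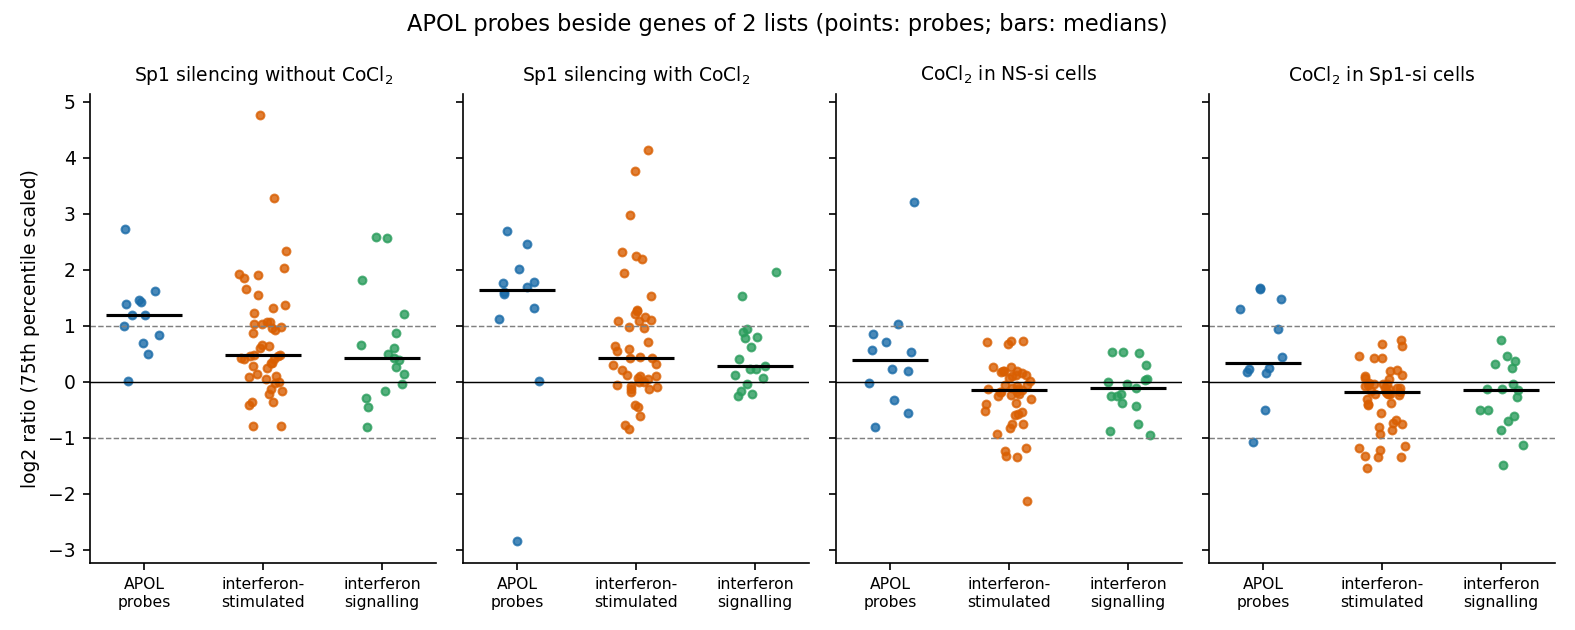
Log2 ratios (75th percentile scaled, y axis) of the 12 APOL probes, of the measured interferon-stimulated genes and of the interferon signalling genes in 4 comparisons, with a point for each probe, a bar at each median and dashed lines at a size of 1. In the panels for Sp1 silencing all 3 medians lie above 0, and in those for CoCl2 only the APOL median does, at 0.38 and 0.34.

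APOL1 shares its blood particle with apolipoprotein A-I and haptoglobin-related protein. APOA1, with a dim probe at signals of 21.9 to 34.6, had log2 ratios of silenced to control cells of -0.54 without and -0.87 with CoCl2. HP, which encodes haptoglobin, had 1.23 and 0.57, and HPR was called well above background nowhere.

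In the RefSeq annotation of GRCh38.p14, the named protein-coding genes of this stretch of chromosome 22 run MB, APOL6, APOL5, RBFOX2, APOL3, APOL4, APOL2, APOL1 and MYH9. MYH9 and RBFOX2, the nearest neighbours measured, did not reach the limit for a change in silenced over control cells, without or with CoCl2. Most probes of the array did not either. Of all probes, 5.44% rose and 5.96% fell without CoCl2, and 6.39% rose and 9.54% fell with it. MYH9, a nonmuscle myosin chain, had log2 ratios of silenced to control cells without CoCl2 of -0.09 and -0.20 with its pair of probes, and of -0.02 and 0.42 with CoCl2. RBFOX2, a splicing regulator that lies between the APOL genes, had 0.43 and -0.59. For CoCl2 in control and silenced cells, MYH9 had 0.91 and 0.98 with A_23_P57497, and 0.11 and 0.72 with A_24_P408424. RBFOX2 had 0.09 and -0.93 for CoCl2, and its difference of CoCl2 ratios, -1.02, passed the limit downwards. MB, which encodes myoglobin, was called well above background nowhere. RASD2 and TXN2, farther out and added after their values had been seen, lay between -0.06 and 0.27 in silenced over control cells, without and with CoCl2. For CoCl2 they lay between -0.13 and 0.34.

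Genes whose levels ran most like those of an APOL probe were sought among 14279 other named genes, by the root mean square difference of log2 values centred on each probe's mean over the 4 arrays. A match over 4 points is a description and no finding. Nearest to APOL2 A_24_P48898 were DBNDD1 (0.05) and CAMTA1 (0.07), followed by APOL1 (0.15). Nearest to APOL3 A_23_P29237 were KCNMB4 (0.04), COL9A3 (0.05) and MME (0.11), and to APOL4 HBP1, SNAI1 and UNC119 (0.10 to 0.11). Nearest to APOL6 A_23_P155049 were ANO10, PML and PLAAT4, all at 0.05, and none of these is in either interferon list described above. APOL3 A_24_P416997 had no near match, since its closest gene, the AP-1 subunit JUN, was 0.50 away, with CoCl2 ratios of 2.09 in control and -0.20 in silenced cells.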

How the data were processed

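Intensities were deposited by the authors as Agilent Feature Extraction 10.5.1.1 wrote them, 1 file an array. Per the file headers, the processed signal is background-subtracted and detrended, and it is not normalized between arrays. The deposited value table of the authors equals this signal times 1 constant an array. The study's text names no normalization. Coordinates are left out because the array was annotated on hg18 and the reference table on GRCh38.p14.

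Control spots and outlier spots were left out, spots of a probe were averaged, and log2 signals were set against the 75th percentile of each array. A probe was well above background where at least 50% of its spots were, and a ratio was counted where at least 1 array compared passed. An array that did not pass was set to the higher of its own value and the lowest value that passed on that array. Such a ratio is an approximate bound. RefSeq accessions matched a symbol for 28458 of 29877 spots. The technical SD of a ratio is the median over the 53 probes with 10 spots nearest in signal, of 264.

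Lists, members and the rule for named genes (all APOL probes, SP1, the 3 highest and lowest genes of each list, neighbours, and the 3 most similar genes) were chosen with earlier results of these data known. Similar genes are named in the text for some probes. Calls on simulated data were checked. Scaling, background correction, filters and limits were varied. Python 3.11.15, numpy 2.4.6, pandas 2.3.3, matplotlib 3.10.9, R 4.3.3 and limma 3.58.1 were used. Some results are not reported here.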

Additional observations from a re-analysis of the deposited data

Results flagged for a closer look

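For 3 probes the log2 CoCl2 ratio was positive in cells of 1 siRNA and negative in cells of the other by more than the technical SD, and the difference was not tested, since each condition had 1 array. APOL3 A_24_P416997 had 3.21 (NS-si) and -1.07 (Sp1-si), a difference of -4.28. APOL6 A_23_P155052 had -0.81 and 0.44, a difference of 1.25. APOL6 A_23_P155049 had -0.32 and 0.24, a difference of 0.56. All 3 probes were dim on at least 1 array, with lowest signals of 9.42, 8.52 and 23.1. With the normexp correction, which shrinks ratios of dim spots, the differences were -1.47, 0.15 and 0.11, and the CoCl2 ratios were 1.11 and -0.36 for A_24_P416997, -0.0042 and 0.15 for A_23_P155052, and 0.02 and 0.13 for A_23_P155049, which then no longer differed in sign.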

How the results depend on the processing

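Of the 60 log2 ratios of APOL probes (12 probes, 5 comparisons), 27 reached the limit of 1, and 0 of these changed sign under 7 alternatives of scaling, source, background or outliers. Under at least 1 alternative, 8 of the 27 fell below the limit, 7 others passed it, and 8 ratios below it changed sign. The number of APOL probes changed by CoCl2 in NS-si cells, 2, became 1 with the percentile over probes above background on all arrays, the authors' table, normexp, a limit of 1.5 or 1 mean a gene, and 8 with a limit of 0.5. For CoCl2 in Sp1-si cells, 5 became 2 with a limit of 1.5 and 3 genes with 1 mean a gene. The 4 raised and 1 lowered among these became 5 and 0 without scaling or with median scaling, and 4 and 0 with quantile normalization or normexp, since APOL3 A_24_P416997 was then at -0.85, -0.95, -0.92 and -0.36. In NS-si cells 2 raised and 0 lowered became 1 and 1 without scaling, where APOL2 A_23_P211488 was at 0.82 and APOL6 A_23_P155052 at -1.03. For Sp1 silencing without CoCl2, 7 became 2 with a limit of 1.5, 4 with normexp and 3 genes with 1 mean a gene, and with CoCl2, 11 became 4 genes. For the difference of CoCl2 ratios, 2 became 6 without scaling, 7 with a limit of 0.5, and 1 with a limit of 1.5, normexp or 1 mean a gene. The stricter limits and the means lower counts by construction, and the cause of the other moves was not tested.

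The normexp correction was planned on mean signals, which the files do not hold, and was run on median signals, chosen after seeing the data. It reduced most the dim probes: for Sp1 silencing with CoCl2, APOL6 A_23_P155052 gave 0.54 and A_23_P155049 gave 0.84. No paired analysis was possible because each condition had 1 array, and no array could be left out for the same reason.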
